A study of Mus musculus with 12 samples.

Results

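The 10 genes described here were the cyclin-dependent kinase (CDK) inhibitors other than Cdkn1a and the D cyclins: Cdkn1b, Cdkn1c, Cdkn2a, Cdkn2b, Cdkn2c, Cdkn2d, Cdkn3, Ccnd1, Ccnd2 and Ccnd3. They were taken by symbol from the 23183 genes listed for each library, and all 10 were found. Gene expression had been measured by RNA-seq in the cortex and hippocampus of male C57BL/6 mice, which were bought at 7 weeks of age, kept for 1 week and then given either a single dose of 10 Gy of cranial irradiation (IR) or a sham exposure of 0 Gy (Con). RNA was taken 3 months later. There were 3 Con and 3 IR libraries in each tissue, 12 in all, and the labels name no transgene or further treatment. The labels do not say whether the libraries came from separate mice, so the p-values measure the spread between these libraries only. The question was whether the other genes of cell cycle arrest and senescence moved with Cdkn1a, which encodes p21.

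D cyclins bind CDK4 and CDK6 and start the phosphorylation of the retinoblastoma proteins, which releases E2F factors and lets a cell leave G1. The INK4 proteins p16 (from Cdkn2a), p15 (Cdkn2b), p18 (Cdkn2c) and p19 (Cdkn2d) block CDK4 and CDK6, whereas the Cip/Kip proteins p21 (Cdkn1a), p27 (Cdkn1b) and p57 (Cdkn1c) bind complexes of several cyclins and CDKs. In an irradiated tissue p21 is best known as a target of p53, p16 as a marker of senescence, and p27 and p19 as inhibitors kept by cells, neurons among them, that have left the cycle.

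The sequences just upstream of 3 inhibitor genes are shown for description only. Whether they bear on expression was not tested. They are RefSeq gene starts on GRCm38.p6, read 5′ to 3′ on the strand of the gene and ending at the base before the first annotated exon. Capitals mark a match to the p53 consensus in Cdkn1a and the cAMP response element TGACGTCA in Cdkn2b, and the Cdkn1b sequence held neither. Of the 2 windows of Cdkn1a, the one with the match is shown.
Cdkn1a, chr17:29090729-29090975, plus strand: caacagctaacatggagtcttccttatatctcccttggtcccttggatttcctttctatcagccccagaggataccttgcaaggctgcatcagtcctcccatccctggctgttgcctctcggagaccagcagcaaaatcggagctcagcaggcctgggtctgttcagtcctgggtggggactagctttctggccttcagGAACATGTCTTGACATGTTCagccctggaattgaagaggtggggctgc
Cdkn1b, chr6:134920151-134920400, plus strand: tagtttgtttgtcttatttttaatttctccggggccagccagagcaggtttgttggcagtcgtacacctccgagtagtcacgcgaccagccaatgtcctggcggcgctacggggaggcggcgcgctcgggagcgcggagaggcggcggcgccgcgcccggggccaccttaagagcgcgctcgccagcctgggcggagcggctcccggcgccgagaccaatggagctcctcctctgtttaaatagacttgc
Cdkn2b, chr4:89311040-89311282, minus strand: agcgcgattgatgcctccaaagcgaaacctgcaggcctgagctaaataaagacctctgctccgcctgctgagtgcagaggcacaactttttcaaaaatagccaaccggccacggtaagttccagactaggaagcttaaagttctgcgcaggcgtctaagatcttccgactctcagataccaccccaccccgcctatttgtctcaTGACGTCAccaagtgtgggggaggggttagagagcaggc

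The p53 consensus was searched on both strands as 2 adjoining repeats of 10 letters without a spacer, with at most 1 mismatch. It was found in 25 of 32851 windows of 250 bases before a gene start, or 0.0761%. Cdkn1a had 2 windows, of which 1 held a match, with 1 mismatch, and none of the 10 windows of the 7 members with a window held one. Matches are so rare that none among 10 windows was to be foreseen, so this absence says nothing particular about the members. Sites farther from the start, with a spacer or with more mismatches were not searched. The promoters of Cdkn1c, Ccnd1 and Ccnd2 were not analysed here. The cAMP response element was present in 1.546% of the windows, so a match is a description of the letters and not evidence of a bound site.

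In the annotation (GENCODE M21 on GRCm38), Cdkn2a (chr4:89274471-89294653) and Cdkn2b (chr4:89306299-89311039) lay 11645 bases apart on the minus strand. Cdkn2c lay farther along the same chromosome (chr4:109660876-109667189) and Cdkn2d on another (chr9:21288410-21291407). Cdkn1b was at chr6:134920401-134925513, Cdkn1c at chr7:143458339-143461050 and Cdkn3 at chr14:46760541-46771669. The D cyclins were at chr7:144929931-144939925 (Ccnd1), chr6:127125162-127152193 (Ccnd2) and chr17:47505051-47599691 (Ccnd3). The values are totals per gene and do not separate exons or isoforms, so the p16 and p19Arf transcripts that share the Cdkn2a locus were not told apart.

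Levels are in FPKM, fragment counts scaled to transcript length and to the size of the library, which allows genes to be compared with each other. Each library summed to between 359773 and 393447 FPKM, with 17093 to 17548 genes above 0, and its depth in reads is unknown. The labelled tissues could be told apart by 6 hippocampal markers, among them Prox1, whose summed level was 65.8 to 87.0 FPKM in the 6 cortex libraries and 162.9 to 185.0 in the 6 hippocampus libraries. The hippocampal Con library 2 and IR library 1 stood apart by their choroid plexus markers, with 1063 and 1654 FPKM summed over 6 genes against 22.9 to 66.5 in the other 4, and cortex IR library 2 (439.9 FPKM) stood apart from the other 5 cortex libraries (4.62 to 31.1). Since these are bulk samples, fewer cells of a type and less RNA per cell cannot be told apart.

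Cdkn1a, the reference for the comparison, rose after irradiation in both tissues. In the cortex it was 5.67, 6.32 and 6.03 FPKM in the Con libraries and 14.8, 12.7 and 16.8 in the IR libraries, a log2 fold change of 1.16 on the log2(FPKM + 1) scale (SE 0.09, limma adjusted p = 0.000947). Its hippocampal values were 2.27, 2.09 and 2.00 FPKM in Con and 6.25, 6.06 and 6.23 in IR, a log2 fold change of 1.20 (SE 0.08, limma adjusted p = 0.00175). The groups were well separated in each tissue. Without the 2 hippocampal libraries rich in choroid plexus markers its hippocampal estimate was 1.19, with an adjusted p of 0.249 in a fit of 4 libraries.

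**Figure D1:**
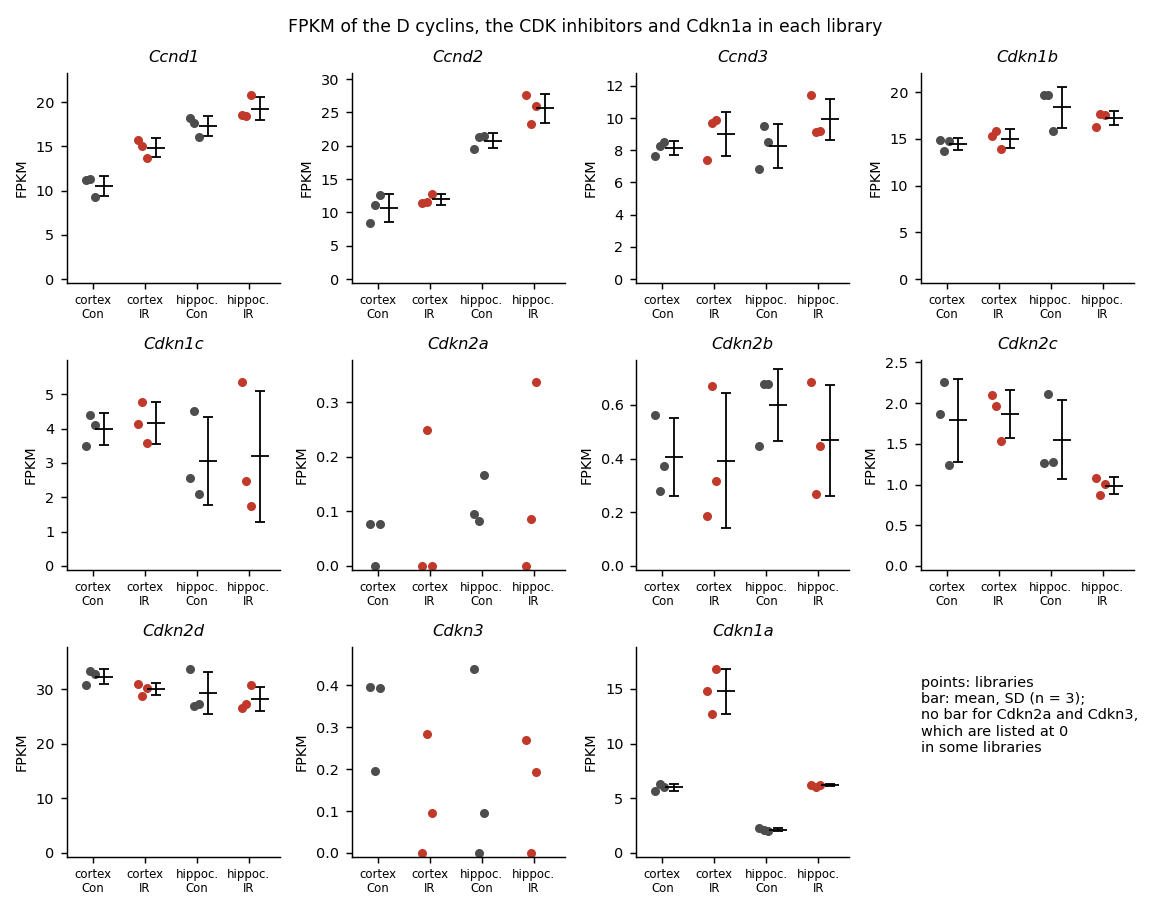
FPKM (vertical axes, starting near 0) of the 10 genes and of Cdkn1a in each of the 12 libraries; points are libraries, grey for Con and red for IR, and the bars give the mean and SD of 3 libraries, except for Cdkn2a and Cdkn3. Cdkn1a separates IR from Con in both tissues, with IR at 12.7 to 16.8 FPKM in the cortex and 6.06 to 6.25 in the hippocampus, and so does Ccnd1 in the cortex (13.7 to 15.8 FPKM in IR), while most other panels overlap.

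Of the 10 genes, 7 passed the filter on low values in the cortex and 8 in the hippocampus. After irradiation 1 of 7 changed in the cortex at a limma adjusted p under 0.05, against 0.725% of all 14065 genes tested there (0.562% rose), and 0 of 8 changed in the hippocampus, against 0.0285% of 14043 genes. The cortical gene was Ccnd1, which rose. The share over all hippocampal genes depended on 1 library: 4 genes passed with all 6 libraries, 861 without Con library 3 and 2 or 3 without any other single library, while 0 members passed in each of these fits. In the cortex 102 genes passed, and 17 (without IR library 1) to 77 when 1 library was left out. At an unadjusted p under 0.05 the counts were 1 of 7 in the cortex (14.1% of all genes) and 2 of 8 in the hippocampus (13.9%), namely Ccnd2, higher, and Cdkn2c, lower. The Con and IR libraries did not overlap for 1 of 7 members in the cortex (20.3% of all genes) and 3 of 8 in the hippocampus (19.8%). In the test of whether the response differed between tissues, 0 of 8 members passed adjustment (0.0830% of 14459 genes) and 1 of 8 had an unadjusted p under 0.05 (10.4%). That member was Ccnd1, and single libraries moved the count. Ccnd1 left it without cortex Con library 3 or IR library 1. Ccnd2 joined it without cortex Con library 1, Cdkn2c without cortex Con library 2 and Cdkn1b without hippocampal Con library 3. Over all genes the test of a difference between tissues passed 12, 487 without hippocampal Con library 3 and 0 to 11 without any other single library, again with 0 members. The median log2 fold change of the tested members was 0.05 (cortex) and -0.02 (hippocampus), beside 0.00 and -0.01 over all genes tested.

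Among the D cyclins, Ccnd1 was the cortical gene that rose. Cyclin D1 is the D cyclin induced by many growth signals, and adult glial and endothelial cells are among those that can use it. Ccnd1 was 11.2, 11.3 and 9.23 FPKM in the cortex Con libraries and 15.8, 15.1 and 13.7 in the IR libraries. Every IR library lay above every Con library. The mean went from 10.6 ± 1.15 to 14.8 ± 1.06 FPKM (SD, n = 3), 40.7% higher, with a log2 fold change of 0.46 (SE 0.08, 95% interval 0.27 to 0.65, limma adjusted p = 0.0466). This adjusted p lay just under the threshold, and leaving out any 1 of the 6 cortex libraries took it to between 0.0566 and 0.222 at a log2 fold change of 0.37 to 0.51.

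In the hippocampus Ccnd1 was 18.3, 17.7 and 16.1 FPKM in Con and 18.6, 18.4 and 20.8 in IR. The groups did not overlap, by a margin smaller than the spread within either group. The log2 fold change was 0.15 (95% interval -0.03 to 0.32, limma adjusted p = 0.416). It was 0.0927 without IR library 3, 0.0944 without Con library 3 and 0.18 without Con library 1. The difference between the 2 tissues in the response of Ccnd1 was -0.31 (SE 0.12), with an unadjusted limma p of 0.0208 and an adjusted p of 0.402. The unadjusted p was under 0.05 in 18 of 20 alternatives. The difference was -0.23 without cortex Con library 3 (unadjusted limma p of 0.0582) and -0.27 without cortex IR library 1 (0.0548).

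Ccnd2 encodes cyclin D2, the D cyclin that adult hippocampal neurogenesis is known to depend on. In the hippocampus it was 19.5, 21.3 and 21.4 FPKM in Con and 27.6, 23.3 and 26.0 in IR. All 3 IR libraries lay above all 3 Con libraries, and the mean was 23.4% higher. The log2 fold change was 0.29 (SE 0.08, 95% interval 0.11 to 0.47), with an unadjusted limma p of 0.00611 and an adjusted p of 0.257, so it did not pass over all genes; without hippocampal Con library 3 the limma adjusted p was 0.0722. The unadjusted p stayed under 0.05 in all 15 alternatives that gave one, from 0.00339 to 0.0430. In the cortex Ccnd2 was 8.37, 11.1 and 12.6 FPKM in Con and 11.5, 11.6 and 12.8 in IR. The cortical groups overlapped, with a log2 fold change of 0.16 (limma adjusted p = 0.589), and the difference between tissues was 0.12 (95% interval -0.22 to 0.47). Both depended on single libraries: the cortical estimate was 0.01 without Con library 1 and 0.28 without Con library 3 (unadjusted limma p of 0.0313), and the difference was 0.27 without cortex Con library 1 (unadjusted limma p of 0.0377) and 0.00576 without cortex Con library 3.

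Ccnd3, the D cyclin best known from lymphocytes, was 7.67, 8.26 and 8.49 FPKM in the cortex Con libraries and 7.42, 9.69 and 9.86 in IR. Its hippocampal values were 6.82, 9.53 and 8.48 in Con and 11.4, 9.11 and 9.22 in IR. The groups overlapped in both tissues, and the log2 fold changes of 0.12 and 0.24 had limma adjusted p-values of 0.638 and 0.421. Single libraries moved both: the cortical estimate was 0.0543 without IR library 3 and 0.24 without IR library 1 (unadjusted limma p of 0.0130), and the hippocampal one was 0.12 without Con library 1 and 0.34 without Con library 2 (unadjusted limma p of 0.0360). The 3 D cyclins had positive estimates in both tissues, so their summed level was 29.4 ± 1.88 FPKM in cortex Con against 35.8 ± 0.991 in IR, and 46.4 ± 2.03 against 54.8 ± 3.51 for the hippocampal groups (SD, n = 3). The sums did not overlap between Con and IR in either tissue. The highest Con and lowest IR sums were 30.6 and 34.6 FPKM in the cortex and 48.6 and 50.9 in the hippocampus. Among single genes, 20.3% of cortical and 19.8% of hippocampal ones did not overlap either. Most of the cortical rise in the sum came from Ccnd1, whose mean went from 10.6 to 14.8 FPKM. Ccnd2 gave the largest part of the hippocampal rise, with means of 20.8 FPKM in Con and 25.6 in IR. The sums are therefore not a result separate from these genes. The smallest p that an exact permutation test of 1 value allows here is 0.1, so the sums were left without a test.

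**Figure D2:**
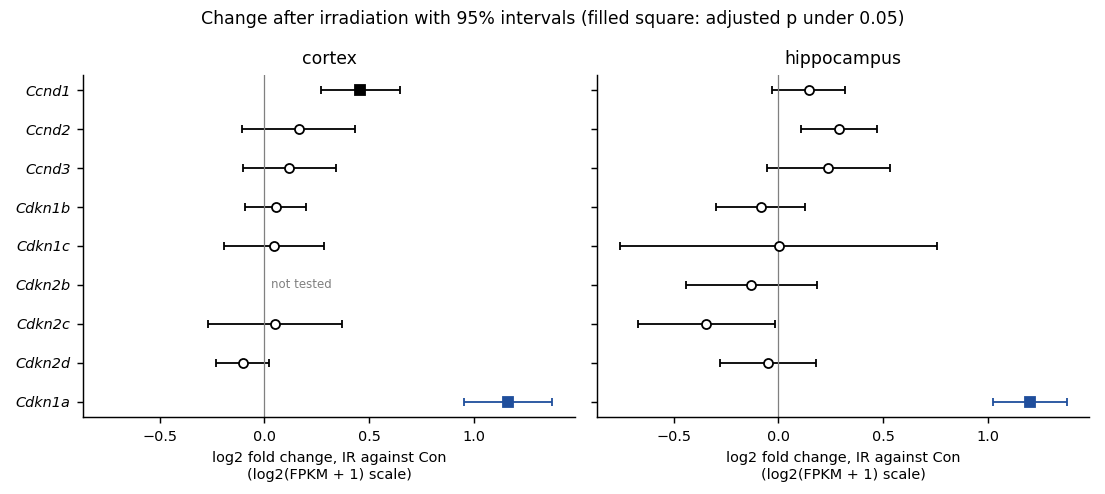
Log2 fold change of IR against Con on the log2(FPKM + 1) scale (horizontal axis) with its 95% interval for each gene tested in the cortex (left) and the hippocampus (right); filled squares are genes with a limma adjusted p under 0.05, and Cdkn1a is in blue. Cdkn1a lies at 1.16 and 1.20, and the other estimates run from -0.10 to 0.46 in the cortex and from -0.34 to 0.29 in the hippocampus.

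Some reads of these genes could belong to a neighbour. By the annotation 23.4% of the exonic bases of Ccnd1 were shared with LTO1 on the opposite strand, listed as Oraov1, whose cortical log2 fold change was -0.03 (limma adjusted p = 0.888). For Ccnd2 the overlaps were smaller, 3.91% with the antisense gene 9330179D12Rik, whose log2 fold change was -0.43 in the cortex (limma adjusted p = 0.0797) and -0.39 in the hippocampus (limma adjusted p = 0.439), and 3.95% with the antisense gene Gm43126. Cdkn1a shared 7.68% with AC167363.2 on the opposite strand. Cdkn1c shared 30.7% of its exonic bases with the antisense gene Gm44732, and Ccnd3 shared 4.11% with Bysl. The library kit keeps strand, but the sources used here do not say that counting used it.

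Of the Cip/Kip inhibitors, neither Cdkn1b nor Cdkn1c passed the test in either tissue. Cdkn1b was 14.9, 13.7 and 14.7 FPKM in the cortex Con libraries and 15.3, 15.8 and 13.9 in IR. Hippocampal values were 19.6, 19.7 and 15.8 in Con and 16.3, 17.6 and 17.6 in IR. The groups overlapped, in the hippocampus through Con library 3 alone, and the log2 fold changes were 0.05 (95% interval -0.09 to 0.20, limma adjusted p = 0.765) and -0.09 (95% interval -0.30 to 0.13, limma adjusted p = 0.681). Leaving out 1 library moved the cortical estimate between 0.0184 and 0.10. The hippocampal one was -0.0354 without Con library 2, -0.0362 without Con library 1 and -0.18 without Con library 3 (unadjusted limma p of 0.0223, adjusted p = 0.127). In both tissues the upper bound for p27 transcript was far under the estimate for p21 transcript. This is not particular to p27: the 95% interval of the difference from Cdkn1a, described below, lay below 0 for 99.7% of cortical and 99.4% of hippocampal genes.

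Cdkn1c was 3.49, 4.38 and 4.11 FPKM in cortex Con and 4.14, 4.78 and 3.57 in cortex IR, with a log2 fold change of 0.05 (95% interval -0.20 to 0.29, limma adjusted p = 0.893). In the hippocampus it was 2.55, 4.51 and 2.10 in Con and 5.35, 2.48 and 1.75 in IR. Con library 2 and IR library 1 were the high ones, and these were the libraries with 1063 and 1654 FPKM of choroid plexus markers. The cortex library with the highest Cdkn1c, IR library 2, was also the one with the most choroid plexus markers. The hippocampal estimate was 0.00 with a wide 95% interval of -0.76 to 0.76 (limma adjusted p = 1.00). Without the 2 hippocampal libraries it was -0.10 (limma adjusted p = 0.917), an alternative chosen after seeing the data, and leaving out 1 library at a time moved it between -0.35 and 0.26. The part that choroid plexus tissue has in the Cdkn1c values was not tested further.

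**Figure D3:**
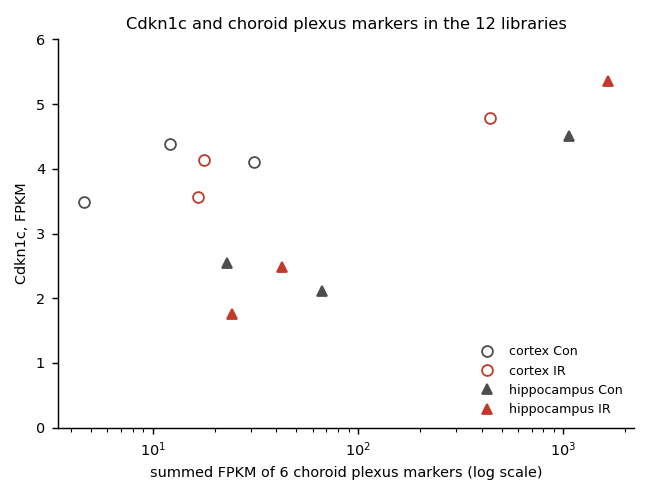
Cdkn1c in FPKM (vertical axis) against the summed FPKM of 6 choroid plexus markers (horizontal log axis) in the 12 libraries; circles are cortex, triangles hippocampus, grey Con and red IR. The 2 hippocampal libraries with 1063 and 1654 FPKM of markers had 4.51 and 5.35 FPKM of Cdkn1c, and the other 4 had 1.75 to 2.55.

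The make-up of the Cip/Kip class differed between Con and IR libraries. Cdkn1a supplied 24.6% ± 1.20 of the summed FPKM of the Cip/Kip genes in cortex Con and 43.4% ± 5.42 in cortex IR (SD, n = 3). The corresponding shares in the hippocampus were 9.10% ± 1.06 and 23.3% ± 0.990. Cdkn1b went from 59.1% ± 2.88 to 44.3% ± 3.46 in the cortex, where Cdkn1a reached about its level (14.8 against 15.0 FPKM in the IR means). In the hippocampus Cdkn1b remained the most abundant of the class, at 78.2% ± 2.91 in Con and 64.9% ± 5.60 in IR.

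**Figure D4:**
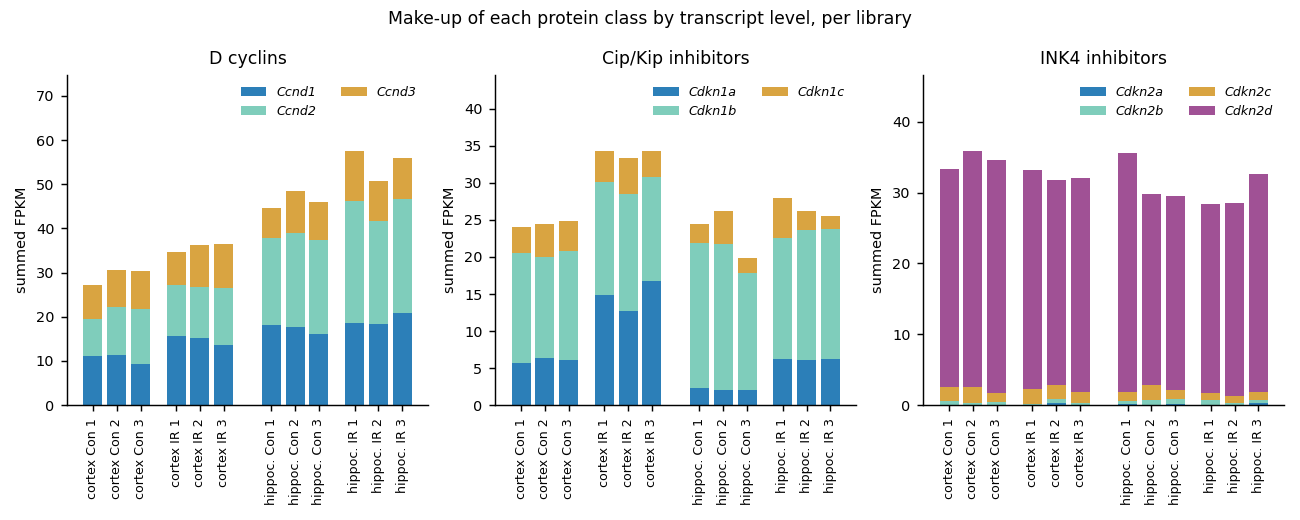
Summed FPKM (vertical axis, from 0) of the D cyclins, the Cip/Kip inhibitors and the INK4 inhibitors in each library, with each gene as a coloured segment. The D cyclin sums are 27.2 to 36.4 FPKM in the cortex and 44.6 to 57.6 in the hippocampus, Cdkn1a gains in share after irradiation, and Cdkn2d supplies 90.4% to 95.7% of the INK4 sum in every library.

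The INK4 class was made up almost entirely of Cdkn2d. It was 30.7, 33.3 and 32.9 FPKM in the cortex Con libraries and 30.9, 28.8 and 30.3 in IR. Hippocampal levels were 33.7, 26.98 and 27.3 in Con and 26.7, 27.2 and 30.8 in IR. The groups overlapped, with log2 fold changes of -0.10 (95% interval -0.23 to 0.02, limma adjusted p = 0.445) and -0.05 (95% interval -0.28 to 0.18, limma adjusted p = 0.840). Its mean stood above 88.1% of all listed genes in hippocampal Con and 89.7% in cortical Con.

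Cdkn2c was 1.26, 2.11 and 1.28 FPKM in the hippocampal Con libraries and 1.08, 0.870 and 1.01 in IR. The groups did not overlap, although 2 of the 3 Con libraries lay close to the highest IR library and Con library 2 was the choroid-rich one. The log2 fold change was -0.34 (SE 0.14, 95% interval -0.67 to -0.02), with an unadjusted limma p of 0.0406 and an adjusted p of 0.347. At these low levels the scale mattered: the log2 difference was -0.57 with a pseudocount of 0.1 and -0.65 as a ratio of the group means. Over the alternatives the unadjusted p ran from 0.0268 to 0.120 and was under 0.05 in 8 of 14, and in 2 of the 6 fits that left out 1 library. Without the 2 choroid-rich libraries the estimate was -0.23, with an unadjusted limma p of 0.111, and without Con library 2 alone it was -0.19. In the cortex Cdkn2c was 1.87, 2.26 and 1.24 FPKM in Con and 2.10, 1.96 and 1.53 in IR, a log2 fold change of 0.05 (limma adjusted p = 0.912). The difference between tissues was -0.40 (95% interval -0.86 to 0.07). It was -0.24 without hippocampal Con library 2, -0.25 without cortex Con library 3 and -0.52 without cortex Con library 2 (unadjusted limma p of 0.0327).

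Cdkn2a and Cdkn2b, the INK4 genes most used as senescence markers, had low values. Cdkn2a was listed at 0.0775, 0 and 0.0768 FPKM in cortex Con and at 0, 0.250 and 0 in cortex IR. In the hippocampus it was listed at 0.0953, 0.0817 and 0.167 in Con and at 0, 0.0853 and 0.337 in IR. No library stood above 0.337 FPKM, 4 of the 12 were listed at 0, and the Con and IR values overlapped in each tissue. In the hippocampus IR values fell on both sides of the Con values. The lowest value above 0 was 0.0768, and the other values above 0 were 1.01 to 4.38 times it. Cdkn2a was below the filter in both tissues and so was not part of the main test. In a fit with no filter on low values its limma adjusted p-values were 0.905 (cortex) and 0.944 (hippocampus).

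Cdkn2b was 0.563, 0.279 and 0.373 FPKM in cortex Con and 0.185, 0.671 and 0.318 in cortex IR, below the filter there. Hippocampal Cdkn2b was 0.445, 0.676 and 0.675 in Con and 0.684, 0.270 and 0.448 in IR. The groups overlapped, and the log2 fold change of -0.13 had a 95% interval of -0.44 to 0.18 (limma adjusted p = 0.670). It was -0.35 with a pseudocount of 0.1, -0.36 as a ratio of group means, -0.23 without IR library 1 and -0.03 without IR library 2.

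Cdkn3, a phosphatase that acts on CDKs and is transcribed mainly in dividing cells, was listed at 0.397, 0.195 and 0.393 FPKM in cortex Con and at 0, 0.285 and 0.0958 in cortex IR. Its hippocampal values were 0.439, 0 and 0.0949 in Con and 0.269, 0 and 0.192 in IR. It was below the filter in both tissues, and the libraries of the groups overlapped. With no filter the cortical values were lower in IR at an unadjusted limma p of 0.0441 (limma adjusted p = 0.408), and the hippocampal adjusted p by limma was 0.972. No fold is given for Cdkn2a or Cdkn3, since some libraries were listed at 0.

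Whether the members followed Cdkn1a was also put directly, as the change of each gene minus that of Cdkn1a in the same libraries. The 95% interval of this difference lay wholly below 0 for 7 of 7 genes in the cortex and 8 of 8 in the hippocampus. The same was true of 99.7% of the other 14064 cortical genes tested and of 99.4% of 14042 hippocampal ones, so these counts are not particular to the members. In the cortex the differences ran from -0.71 for Ccnd1 (95% interval -1.002 to -0.409) to -1.27 for Cdkn2d. In the hippocampus they ran from -0.91 for Ccnd2 (95% interval -1.11 to -0.71) to -1.55 for Cdkn2c. The interval for Cdkn1c, the widest, was -2.08 to -0.32 in the hippocampus. Leaving out 1 library kept all 7 cortical intervals below 0 and all 8 hippocampal ones, except for 7 of 8 without hippocampal IR library 2. None of the members tested changed by as much as Cdkn1a on this scale, which understates changes of low genes.

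The tissues differed more than the groups did for some members. In the Con libraries 3 of 8 members were higher in the hippocampus than in the cortex at a limma adjusted p under 0.05 and none was lower. Of all 14169 genes tested 36.3% differed in either direction, so the count of members that differed was near the share over all genes and is not particular to them. The 3 members were Ccnd1 (17.3 against 10.6 FPKM, log2 difference 0.67, limma adjusted p = 0.000492), Ccnd2 (20.8 against 10.7 FPKM, 0.91, limma adjusted p = 0.000469) and Cdkn1b (18.4 against 14.4 FPKM, 0.32, limma adjusted p = 0.0259). Cdkn1a was lower there, at 2.12 against 6.01 FPKM (-1.17, limma adjusted p = 1.06e-05). The call for Cdkn1b was lost in 5 of the 6 fits that left out 1 Con library, and held only without hippocampal Con library 3. Cdkn2d (-0.24, limma adjusted p = 0.0462) passed without hippocampal Con library 1, and Cdkn1c (-0.58, limma adjusted p = 0.00886) without the choroid-rich hippocampal Con library 2. Ccnd2 supplied 44.8% ± 1.61 of D cyclin FPKM in hippocampal Con and 36.1% ± 5.39 in cortical Con. The column names carry a different suffix for each tissue, whose meaning is not given, so tissue and whatever the suffix marks cannot be told apart.

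Within each group the order of levels was similar at its ends. Cdkn2d had the highest mean of the 10 genes in all 4 groups, although in hippocampal IR it overlapped Ccnd2, which was above it in IR library 1 (27.6 against 26.7 FPKM), and Cdkn2c, Cdkn2b, Cdkn3 and Cdkn2a were the lowest. In cortical Con Cdkn1b followed Cdkn2d, and Ccnd2 and Ccnd1, whose libraries overlapped, came next. The mean of Ccnd3 was below theirs, although the lowest Ccnd2 value (8.37 FPKM) was under the highest Ccnd3 value (8.49 FPKM). In hippocampal Con Ccnd2, Cdkn1b and Ccnd1 followed Cdkn2d with overlapping neighbours, ahead of Ccnd3 and Cdkn1c.

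The wider G1 machinery, 21 genes of kinases, E cyclins, retinoblastoma proteins, E2F factors and p27 turnover, held no gene with an adjusted p under 0.05. At an unadjusted p under 0.05, 4 of its 17 tested genes were higher and 1 was lower in the cortex, beside 8.16% and 5.94% of all genes. Of the 16 tested hippocampal genes 2 were higher and 0 lower, beside 7.06% and 6.89%. Con and IR libraries did not overlap for 5 of 17 in the cortex (20.3% of all genes) and 7 of 16 in the hippocampus (19.8%). Those 7 were Cdk4, Rb1, E2f1, E2f3 and Cdc25a, lower, and Rbl2 and E2f4, higher. The smallest cortical p-values were those of E2f6, a repressive E2F (log2 fold change 0.32, limma adjusted p = 0.0650), Ccne2, a cyclin of S phase entry (-0.41, limma adjusted p = 0.1003), and Tfdp1, a dimer partner of E2Fs (0.20, limma adjusted p = 0.181). Hippocampal E2f4 (0.22, limma adjusted p = 0.271) and Rbl2 (0.21, limma adjusted p = 0.313), which together form a repressor complex of resting cells, had cortical estimates of 0.18 and 0.23. Rb1 was at -0.14 in the hippocampus (limma adjusted p = 0.390). The list medians of the log2 fold change were 0.04 (cortex) and 0.00 (hippocampus). The summed level of the list did not overlap in the cortex, at 112.1 to 118.5 FPKM in Con and 122.1 to 124.5 in IR. It did in the hippocampus, at 124.0 to 125.0 in Con and 123.2 to 125.3 in IR.

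Genes of replication and mitosis were sparse, with 11 of 19 tested in each tissue and none past adjustment. In the cortex 1 of 11 was lower at an unadjusted p under 0.05 (5.94% of all genes), the helicase subunit Mcm6 (-0.26, limma adjusted p = 0.211). In the hippocampus 2 of 11 were lower (6.89% of all genes), Pcna, the replication clamp (-0.23, limma adjusted p = 0.312), and Mcm2 (-0.28, limma adjusted p = 0.347), with Ccna2 at -0.21 (limma adjusted p = 0.360). The summed level of the list was 51.3 to 57.7 FPKM in hippocampal Con and 46.9 to 50.4 in IR, and 47.1 to 48.1 and 44.7 to 45.8 in the cortex, so the sums did not overlap in either tissue. Pcna alone supplied 30.0 FPKM of the cortical sum in Con and 28.2 in IR, and 32.9 and 27.7 of the hippocampal one. Over the list 4 of 11 genes were higher and 7 lower in the cortex (median log2 fold change -0.0023), and 3 were higher and 8 lower in the hippocampus (median -0.11).

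Of 20 p53 targets, 17 cortical and 16 hippocampal ones passed the filter, and Cdkn1a was the only one past adjustment in either tissue. Ccng1 (0.35, limma adjusted p = 0.200) and Mdm2 (0.17, limma adjusted p = 0.240) followed in the cortex, and Sesn2 (0.29, limma adjusted p = 0.278) and Plk2 (-0.30, limma adjusted p = 0.311) in the hippocampus. At an unadjusted p under 0.05, with Cdkn1a among them, 4 of 17 were higher in the cortex (8.16% of all genes) and 0 lower, and in the hippocampus 4 of 16 were higher (7.06%) and 1 lower (6.89%). Medians over the list were 0.08 (cortex) and -0.02 (hippocampus).

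Secreted senescence factors were mostly near 0: 16 of 22 in the cortex and 13 of 22 in the hippocampus stayed below 1 FPKM in every library. Hippocampal Con library 1 stood apart, with a summed level of 142.7 FPKM against 118.8 and 107.4 in the other Con libraries and 103.0 to 112.0 in IR. In hippocampal Con Ccl5 had a mean of 6.28 FPKM with an SD of 10.9, and the SD was above the mean for Ccl3, Ccl4 and Cxcl2 too. Of the 6 tested in each tissue none passed adjustment. Hippocampal Igfbp3 was at 0.23 (limma adjusted p = 0.261), Tgfb1 at -0.34 (limma adjusted p = 0.295) and Serpine2 at -0.09 (limma adjusted p = 0.493). In the cortex Tgfb1 was at -0.11 (limma adjusted p = 0.673), Serpine2 at 0.05 (limma adjusted p = 0.745) and Glb1, the lysosomal β-galactosidase, at 0.05 (limma adjusted p = 0.739).

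The last pathway list held 9 genes, the Polycomb repressors of the Ink4 locus with lamin B1 and the HMGB chromatin proteins, and none passed adjustment. At an unadjusted p under 0.05, 3 of 9 were lower in the hippocampus (6.89% of all genes) and 1 of 9 in the cortex (5.94%). Hmgb2 was at -0.61 in the hippocampus (limma adjusted p = 0.225) and -0.33 in the cortex (limma adjusted p = 0.262). Lmnb1, whose loss is used as a senescence readout, was at -0.36 in the hippocampus (limma adjusted p = 0.262) and -0.03 in the cortex, and Hmgb1 was at -0.29 in the hippocampus (limma adjusted p = 0.336). The Polycomb genes Bmi1 (0.14, limma adjusted p = 0.370) and Eed (0.18, limma adjusted p = 0.392) had the next smallest cortical p-values.

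**Figure D5:**
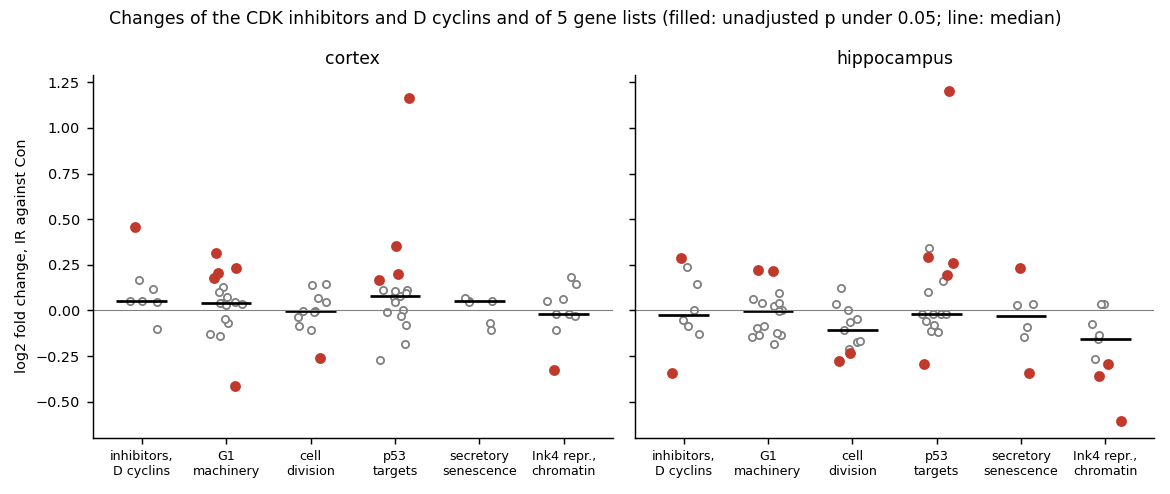
Log2 fold change of IR against Con (vertical axis) for the tested CDK inhibitors and D cyclins and for 5 gene lists, in the cortex (left) and hippocampus (right); each point is a gene, filled red where the unadjusted limma p was under 0.05, and lines are medians. The point at 1.16 and 1.20 among p53 targets is Cdkn1a, and list medians run from -0.16 to 0.08.

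The summed levels of the markers of some other cell types did not overlap between the groups. The summed level of 6 endothelial markers was 73.7 to 87.7 FPKM in cortex Con and 90.6 to 103.7 in IR, and 64.2 to 71.7 and 78.2 to 81.5 in the hippocampus. In each tissue 4 of the 6 were higher and 2, Slco1a4 and Tek, lower, with none past adjustment. At an unadjusted p under 0.05, 3 of 6 were higher in the cortex (8.16% of all genes) and 1 of 6 in the hippocampus (7.06%). Cldn5 moved the sums most, from 25.7 to 35.6 FPKM in the cortex means and from 21.2 to 29.3 in the hippocampal ones. The summed level of 8 microglial markers was lower after irradiation in the hippocampus (133.7 to 158.4 against 101.6 to 115.8 FPKM), where Csf1r fell by 0.84 on the log2 scale (limma adjusted p = 0.0126), and overlapped slightly in the cortex (136.2 to 146.3 against 101.7 to 137.1). All 8 had negative estimates in each tissue, and at an unadjusted p under 0.05 these counted 3 of 8 for the cortex (5.94% of all genes), among them Csf1r (-0.80, limma adjusted p = 0.276) and Cx3cr1 (-0.36, limma adjusted p = 0.135), and 6 of 8 in the hippocampus (6.89%). The summed level of 6 oligodendrocyte markers was 1050 to 1302 FPKM in cortex Con and 1306 to 1583 in IR, most of it Mbp, and overlapped in the hippocampus (1072 to 1308 against 1001 to 1265). None of the 6 passed adjustment in either tissue. At an unadjusted p under 0.05, 3 of 6 were higher in the cortex (8.16% of all genes), while 2 of 6 were lower in the hippocampus (6.89%), Mog (-0.30, limma adjusted p = 0.247) and Mag (-0.30, limma adjusted p = 0.327). In both tissues the Con and IR sums overlapped for oligodendrocyte precursors, astrocytes, neurons, neuroblasts and fibroblasts. None of their genes passed adjustment. Of 6 precursor markers 2, Gpr17 (0.28) and Olig2 (0.23), were higher in the cortex at an unadjusted limma p under 0.05 (8.16% of all genes) and 0 lower. All 5 tested neuroblast markers had negative cortical estimates, 1 of them, Dcx (-0.30), under that p (5.94%). All 6 fibroblast markers had positive hippocampal estimates, 1 of them, Slc6a13 (0.67), under it (7.06%), and negative cortical ones. The astrocyte sum was 508.8 to 615.3 FPKM in cortex Con and 531.8 to 563.9 in IR, and 683.0 to 779.3 and 649.2 to 700.5 in the hippocampus. There all 6 astrocyte markers had negative estimates, and 3 of 6 had an unadjusted p under 0.05 (6.89% of all genes lower): Gja1 (-0.20, limma adjusted p = 0.299), Slc1a3 (-0.15, limma adjusted p = 0.336) and Aldh1l1 (-0.16, limma adjusted p = 0.357). The hippocampal neuroblast sum of 46.2 to 67.7 FPKM in Con and 55.1 to 60.3 in IR was mostly Calb2 (means 26.99 and 31.2 FPKM) and Neurod1 (13.6 and 14.9). Of the 7 neuroblast markers 2, Eomes and Igfbpl1, stayed under 1 FPKM in every library and were not tested. Their hippocampal means were 0.155 FPKM in Con and 0.0301 in IR for Eomes, whose groups did not overlap, and 0.567 and 0.190 for Igfbpl1, whose groups did. The part of these differences in the D cyclin values was not tested.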

How the data were processed

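RNA from the cortex and hippocampus was sequenced in 12 libraries. Per the study's methods, the authors trimmed reads with FASTX_Trimmer and BBMap, aligned them with TopHat and made the deposited FPKM values with Cufflinks, with a geometric normalization in edgeR. The submitters' processing notes name mm10; tool versions and the annotation are not given in the sources used here. The labels name Trizol and total RNA, and the methods a column kit and poly(A) selection.

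A gene entered a comparison if 3 or more of its 6 libraries (of either tissue for the interaction) had 0.5 FPKM or more, and was tested on log2(FPKM + 1) with limma 3.58.1 in R 4.3.3, with a variance trend, a robust prior and Benjamini-Hochberg adjustment over all tested genes. The script was tested on simulated data. The members and gene lists were chosen with earlier results of these data known. Named were all members and Cdkn1a, in the 5 pathway lists genes with an adjusted p under 0.05 and otherwise the 3 smallest p-values per tissue, and the 3 genes most like each member, some of which are not reported here. Genes were matched to GENCODE M21 and RefSeq windows on GRCm38. Alternatives changed the filter, pseudocount, scaling, limma settings, threshold, libraries and replicate block. Plots used matplotlib 3.10.9 (Python 3.11.15).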

Additional observations from a re-analysis of the deposited data

How the results depend on the processing

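Calls in the cortex rested on Ccnd1 alone. The count of members called there was 0 in place of 1 with no filter on low values (Ccnd1 adjusted p = 0.124 by limma), with quantile normalization (0.0705), with median-ratio scaling (0.0518), without the variance trend and robust prior (0.103) and with a fold of 1.5 beside an unadjusted p under 0.05, and it was 0 in each of the 6 fits that left out 1 cortex library; the unadjusted p of Ccnd1 stayed under 0.05 in all 14 alternatives with a p. In the hippocampus the count was 2 in place of 0 at an unadjusted p under 0.05. The count of members that differed between tissues was 2 to 3 when 1 Con library was left out. Directions turned for small estimates. Leaving out 1 library moved Cdkn1c from -0.0396 to 0.13 and Cdkn2c from -0.10 to 0.17 in the cortex, Cdkn1c from -0.35 to 0.26 and Cdkn2d from -0.11 to 0.0506 in the hippocampus, and Ccnd3 from -0.0854 to 0.13 between tissues. It moved the interaction from -0.39 to 0.21 for Cdkn1c, from -0.21 to 0.0339 for Cdkn2b, from -0.00807 to 0.15 for Cdkn2d and from -0.0594 to 0.13 for Cdkn1a. Hippocampal Cdkn1c was -0.0166 with a pseudocount of 0.1 and -0.10 without the 2 choroid-rich libraries, and Ccnd3 between tissues was -0.0116 with median-ratio scaling. The log2 difference of hippocampal Cdkn2c was -0.57 with a pseudocount of 0.1 and -0.65 as a ratio of group means, and that of Cdkn2b was -0.35 and -0.36. On the same scales Cdkn1a was 1.501 and 1.54 in the hippocampus and 1.28 and 1.30 in the cortex, and its interaction was 0.22 with a pseudocount of 0.1 in place of 0.04. Leaving out 1 library moved Ccnd2 from 0.01 to 0.28 in the cortex and from 0.00576 to 0.27 in the interaction. The cause was not tested. The interaction already used all 12 libraries.

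Library numbers were checked as pairs. Correlations of same-numbered Con and IR libraries were -0.39 to 0.11, so the numbers did not pair the samples. With the replicate block the cortex count stayed at 1, the hippocampus count at 0, the interaction count at 0 and the tissue count at 3, while the call for hippocampal Cdkn1a was lost (limma adjusted p of 0.0772). Treating libraries of one group and number as 1 mouse was tried for the interaction, with a consensus correlation of 0.0316 and no member called there. Depth in reads is unknown. Cdkn2a and Cdkn3 were below the filter in both tissues and Cdkn2b in the cortex.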

Other observations

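The genes whose pattern was most like that of a member were sought over the 12 libraries, after the mean of each tissue was taken off, among genes with a mean of at least 5 FPKM. The most like Ccnd1 were Mapk11 (Pearson r = 0.943), Pvrl1 (0.936) and Gpd1 (0.926). Among the most like Ccnd2 were Kcng1 (0.947) and Mief1 (0.888), and the most like Ccnd3 were Srebf1 (0.911), Paxip1 (0.897) and Proser1 (0.877). For the inhibitors they included Zfp608 (0.931), Sar1b (0.928) and Srp72 (0.921) for Cdkn1b, Tbpl1 (0.925) and Lmo4 (0.915) for Cdkn2c, and Cops5 (0.936), Drosha (0.885) and Tceal3 (0.884) for Cdkn2d. Those of Cdkn1c were Slc31a1 (0.954), Igfbp2 (0.954) and Vat1l (0.945). Among about 9288 candidates high values of r over 12 libraries are common, and the libraries share their group differences and scaling, so these values are descriptions.

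Over the same 12 libraries, again with the tissue means taken off, Ccnd2 and Ccnd3 had r = 0.700 with each other. With Cdkn1a, r was 0.762 for Ccnd1, 0.680 for Ccnd2 and 0.513 for Ccnd3. The inhibitors had lower values with Cdkn1a, such as -0.13 for Cdkn1b, 0.02 for Cdkn1c and -0.38 for Cdkn2c. These include the difference between Con and IR libraries.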
